A study of Mus musculus with 24 samples.

Results

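The interferon-inducible GTPases described here are 10 mouse genes, the guanylate-binding proteins Gbp2, Gbp3, Gbp5 and Gbp7 and the immunity-related GTPases (IRGs) Irgm1, Irgm2, Igtp, Iigp1, Tgtp1 and Tgtp2. They were chosen by name, all 10 were found among the 55421 genes of the deposited count table, and all 10 passed the filter on low counts over the 24 libraries. These large GTPases are made in little amount at rest and in quantity after interferon, and they collect on the vacuoles of intracellular bacteria and parasites. Guanylate-binding proteins coat the vacuole or the bacterium itself and expose it to the cytosolic sensors of the cell. IRGs fall into effectors, named GKS after a motif in the GTP-binding loop, which load onto the vacuole and break it, and regulators, named GMS, which sit on the cell's own membranes and keep the effectors switched off there. In macrophages, bacterial lipopolysaccharide (LPS) reaches this programme through Toll-like receptor 4, which leads to secreted interferon-β, while interferon-γ from lymphocytes reaches it through a receptor of its own.

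The libraries were bulk RNA-seq of bone marrow-derived macrophages (BMDMs), grown from bone marrow with 10 ng/ml GM-CSF and 2 ng/ml TGF-β, which drives them towards an alveolar-like state. The study asked how the aryl hydrocarbon receptor (AhR), a ligand-activated transcription factor, shapes what these cells make, and compared 4 groups of 6 libraries. WT unstimulated and WT LPS came from wildtype C57BL/6J mice, and AhR-KO unstimulated and AhR-KO LPS from mice with the Ahr tm1Bra allele, a germline knockout, so that every cell of the animal, and of the culture, lacked the receptor from the start. The LPS groups received 97 EU/ml of LPS from day 6 for 24 h. The protocol also names 5 µM of the Ca2+ ionophore A23187 for 10 min before harvest, and the same protocol text stands for all 4 groups. Per the study's methods, matched animals of similar age and both sexes were used, and the labels give no age for a single library. Per the study's methods the 6 libraries of a group came from 6 animals of 1 experiment, while no label ties an LPS culture to an unstimulated one of the same animal. The knockout allele was made in 129-derived cells and carried on C57BL/6J. Ahr lies on chromosome 12, and none of the 10 GTPase genes does.

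Library totals ran from 45106052 to 76992663 counted fragments. Library numbers 17 to 40 form 3 runs of 8, each with 2 libraries of every group. The labels do not call these runs batches. Ahr itself was counted at 9.60 to 43.1 CPM (counts per 1000000 fragments, scaled by TMM) in WT unstimulated, 4.74 to 10.96 in AhR-KO unstimulated, 6.58 to 27.9 in WT LPS and 21.4 to 63.8 in AhR-KO LPS. The count takes in the whole gene, so any transcript of the disrupted gene would be counted too and the level does not check the genotype labels. After LPS the Ahr mean was higher in AhR-KO (43.1 CPM) than in WT (16.8 CPM), and the cause was not tested. By qPCR the study could not detect AhR expression in BMDMs of the knockout. Summed macrophage markers were high everywhere (12100 to 33700 CPM over 7 genes), and the sum was mostly Lyz2. Group means of Lyz2 ran from 13690 CPM in AhR-KO LPS to 26480 in AhR-KO unstimulated. The 8 alveolar macrophage markers summed to 6850 to 9330 CPM in WT unstimulated, 8130 to 11200 in AhR-KO unstimulated, 3770 to 8200 in WT LPS and 7130 to 11000 in AhR-KO LPS. Summed B cell markers stayed at or under 0.347 CPM and T and NK cell markers at or under 3.04 CPM. Neutrophil markers (7 of 7 counted in every group) summed to 1580 to 12600 CPM in WT unstimulated against 236 to 791 in AhR-KO unstimulated, and to 709 to 8400 in WT LPS against 135 to 1020 in AhR-KO LPS. Dendritic cell markers summed to 35.8 to 111 CPM in WT unstimulated, 9.28 to 15.7 in AhR-KO unstimulated, 563 to 2440 in WT LPS and 100 to 893 in AhR-KO LPS, with Siglech at 0 in both LPS groups. After LPS that sum was mostly Ccr7, an LPS-inducible migration receptor (541 to 2414 CPM in WT and 96.5 to 884 in AhR-KO), and unstimulated it was mostly Ccr7 and Cd207 in WT. Of the 6 dendritic cell markers tested, Ccr7, Cd207, Flt3 and Cd209a were called lower in AhR-KO unstimulated (3.57% of all genes) and Clec9a higher (0.916% of all genes). After LPS Ccr7, Cd207, Flt3 and Zbtb46 were called lower in AhR-KO (6.19% of all genes) and none higher. Mast cell and basophil markers summed to at most 22.4 CPM. Libraries 34 (WT unstimulated) and 38 (WT LPS) had 2 and 4 counts of Y-linked genes, against at least 8596 in every other library. Library 33 (WT unstimulated) and library 37 (WT LPS) stood apart by their neutrophil markers, 12640 and 8398 CPM, and library 31 (AhR-KO LPS) by its dendritic cell marker sum, 893 CPM, of which Ccr7 was 884. In bulk libraries a smaller number of cells of a type and less RNA per cell cannot be told apart.

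The GTPase genes lie on 3 chromosomes of the mm10 genome. The guanylate-binding proteins are neighbours on the plus strand of chromosome 3, in the order Gbp5 (ENSMUSG00000105504, chr3:142493978-142522344), Gbp7 (ENSMUSG00000040253, chr3:142530342-142550149), Gbp3 (ENSMUSG00000028268, chr3:142560026-142573209) and Gbp2 (ENSMUSG00000028270, chr3:142620602-142638008). On chromosome 11, Irgm1 (ENSMUSG00000046879, chr11:48861968-48871683), Tgtp1 (ENSMUSG00000078922, chr11:48985327-48994172) and Tgtp2 (ENSMUSG00000078921, chr11:49057194-49064206) lie on the minus strand, and Igtp (ENSMUSG00000078853, chr11:58199556-58207591) and Irgm2 (ENSMUSG00000069874, chr11:58199618-58222782) on the plus strand. Iigp1 lies apart from both, on another chromosome. Igtp and Irgm2 share 162 exonic bases of the same strand, which is 8.0% of Igtp and 4.4% of Irgm2, and fragments that touch both were left out of the counts of both. Tgtp1 and Tgtp2 are near copies: 73.1% of the 100-base windows of Tgtp1 transcripts and 76.8% of those of Tgtp2 occur word for word in another gene, 2180 of them in each other. Only fragments that reach a difference are counted for these 2 genes, so both counts are low and their ratio is uncertain. Gbp7 shares 10.0% of its windows with other genes, mostly the overlapping Gm43802, and Gbp3 0.694%. The counting used strand.

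The promoters of these genes carry letters known as interferon response sites, and they are shown because their arrangement differs between the 2 families. The interferon-stimulated response element (ISRE), bound by IRF factors, was searched as GAAANNGAAA, the gamma-activated site (GAS), known from interferon-γ responses, as TTCNNNGAA, and the xenobiotic response element (XRE), bound by AhR with ARNT, as GCGTG, each on both strands. The windows were the RefSeq promoters of GRCm38.p6, 250 bases before and 50 bases after each start, and 9 of the 10 genes matched, Gbp3 with 2 promoters. An ISRE was present in 9 of these 10 promoters, against 3.44% of 32851 promoters of the same length in all. Below, 60 bases around each ISRE are printed 5′ to 3′ on the strand of the gene, with the ISRE in capitals and, where it stands 2 bases away, the GAS in capitals too.
Gbp2 (chr3:142620579-142620638, + strand): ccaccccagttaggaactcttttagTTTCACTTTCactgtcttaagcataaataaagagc
Gbp3 (chr3:142559974-142560033, + strand): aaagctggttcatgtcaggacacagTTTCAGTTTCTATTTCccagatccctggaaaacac
Gbp5 (chr3:142496744-142496803, + strand): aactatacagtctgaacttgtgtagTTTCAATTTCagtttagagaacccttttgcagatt
Gbp7 (chr3:142530258-142530317, + strand): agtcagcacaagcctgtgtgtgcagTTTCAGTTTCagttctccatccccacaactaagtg
Irgm1 (chr11:48871416-48871475, - strand): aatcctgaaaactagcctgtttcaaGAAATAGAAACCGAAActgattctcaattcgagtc
Irgm2 (chr11:58214888-58214947, + strand): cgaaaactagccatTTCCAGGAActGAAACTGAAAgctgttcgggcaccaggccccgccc
Igtp (chr11:58199497-58199556, + strand): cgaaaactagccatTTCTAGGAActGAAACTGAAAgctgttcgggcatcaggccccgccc
Tgtp1 (chr11:48992289-48992348, - strand): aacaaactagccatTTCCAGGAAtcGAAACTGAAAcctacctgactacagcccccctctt
Tgtp2 (chr11:49064248-49064307, - strand): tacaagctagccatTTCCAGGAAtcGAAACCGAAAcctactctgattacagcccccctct

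All 4 guanylate-binding protein genes hold the ISRE as its reverse complement, and all 5 IRG genes as GAAANNGAAA. Gbp3 and Irgm1 have 2 overlapping matches each, which read as 3 GAAA or TTTC units in a row. In 4 IRG promoters, those of Irgm2, Igtp, Tgtp1 and Tgtp2, a GAS ends 2 bases before the ISRE begins. That arrangement was found in 5 of all 32851 promoters (0.0152%), and the fifth belongs to Gm12185, another IRG gene of chromosome 11. These genes are related by descent, so their promoters are not independent examples. Gbp5 and Gbp7 have GAS matches at other distances, and Gbp2, Gbp3 and Irgm1 have none in the window. A GAS was present in 6 of the 10 promoters (8.3% of all promoters) and an XRE in 2, Irgm2 and Igtp (32.4% of all promoters). A match is a match of letters, and binding was not measured.

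**Figure D1:**
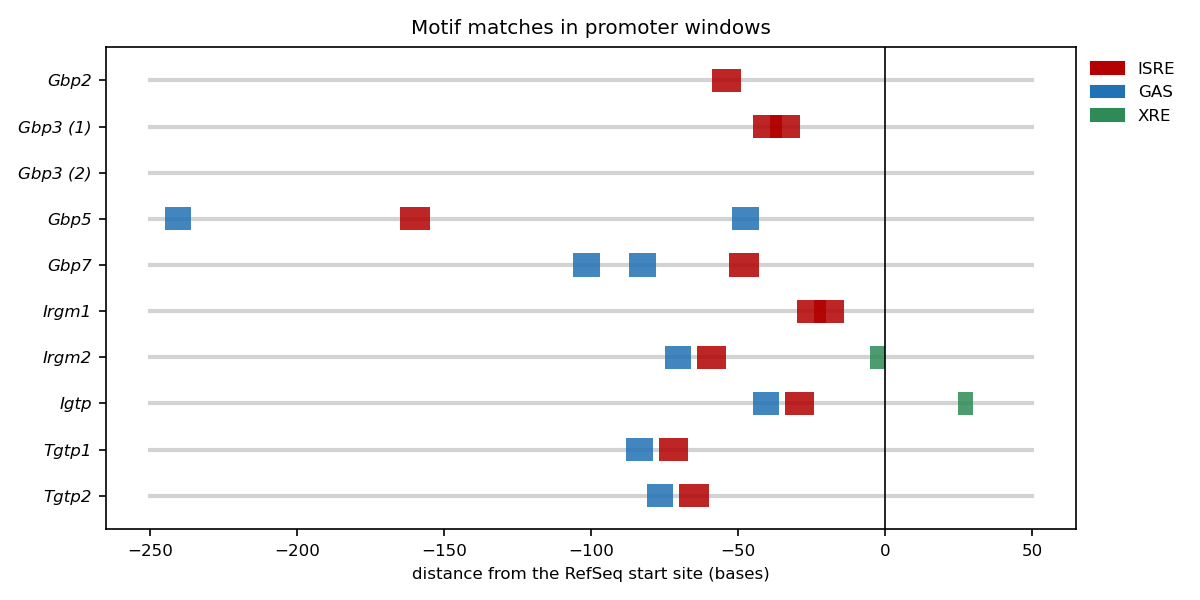
Position of ISRE, GAS and XRE matches in the RefSeq promoters of 9 GTPase genes (x axis: bases from the start site; 1 row per promoter, Gbp3 has 2; boxes: matches on either strand). The GAS and ISRE boxes of Irgm2, Igtp, Tgtp1 and Tgtp2 stand side by side, and 9 of the 10 promoters hold an ISRE.

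In wildtype cells LPS raised every one of the 10 GTPases. Gbp2, Gbp3, Gbp5 and the 3 effector IRGs moved most, and Gbp7 and the 3 regulatory IRGs moved less. Gene calls were made with edgeR's quasi-likelihood test on all 16593 genes that passed the filter, with a Benjamini-Hochberg adjusted p of at most 0.05 and at least a 2-fold change. All 10 were called higher in WT LPS than in WT unstimulated, where 13.2% of all genes tested were, and their log2 fold changes had a median of 4.46 beside 0.03 over all genes. In AhR-KO cells all 10 were called higher too, with a background of 15.1%, and the median log2 fold change was 5.94 beside -0.03 over all genes. Values below are CPM, given as the lowest, the median and the highest of the 6 libraries of a group, and a log2 fold change is followed by its standard error. Overlap of libraries between the states is given for each gene, and the share of all genes without such overlap was not counted.

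Gbp2, which helps to release LPS from bacteria for caspase-11, was at 6.76, 30.1 and 41.2 CPM in WT unstimulated and 283, 877 and 1303 in WT LPS. In AhR-KO it was at 8.16, 31.6 and 60.4 unstimulated and 921, 2461 and 3272 after LPS. No library overlapped between the states in either genotype, and the log2 fold change was 4.85 ± 0.52 (SE, adjusted p = 8.75e-08) in WT and 6.23 ± 0.56 (SE, adjusted p = 2.82e-09) in AhR-KO. Gbp3, a neighbour in the same cluster, was at 7.42, 22.7 and 27.3 CPM in WT unstimulated and 201, 326 and 468 in WT LPS. Its AhR-KO values were 10.4, 15.8 and 26.2 unstimulated and 593, 829 and 1079 after LPS. The log2 fold change was 4.07 ± 0.31 (SE, adjusted p = 4.13e-10) in WT and 5.66 ± 0.34 (SE, adjusted p = 2.73e-12) in AhR-KO, again with no overlap.

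Gbp5, which has been linked to assembly of the NLRP3 inflammasome, started lower, at 1.77, 6.41 and 9.92 CPM in WT unstimulated, and reached 98.2, 256 and 351 in WT LPS. In AhR-KO it went from 1.40, 5.45 and 9.40 to 213, 537 and 754. Its log2 fold change in WT, 5.21 ± 0.49 (SE, adjusted p = 1.2e-08), was the highest of the 10 GTPases there, and in AhR-KO it was 6.68 ± 0.53 (SE, adjusted p = 3.41e-10). Gbp7, which brings NADPH oxidase and autophagy parts to vacuoles, behaved less evenly. It was at 0.953, 3.30 and 17.6 CPM in WT unstimulated and 7.29, 24.96 and 94.3 in WT LPS, so the states overlapped, and at 0.34, 7.64 and 13.5 and 15.4, 67.0 and 139 in AhR-KO, where they did not. The log2 fold change was 2.50 ± 0.89 (SE, adjusted p = 0.0286) in WT and 3.34 ± 0.92 (SE, adjusted p = 0.00449) in AhR-KO. The WT call was lost when any 1 of libraries 17, 18, 29, 30, 33 and 34 was left out (adjusted p 0.0531 to 0.0804). It was also lost with scaling by total library size (log2 fold change 2.13). Gbp7 followed the runs of library numbers: WT LPS libraries averaged 24.96, 84.9 and 8.47 CPM in runs 1, 2 and 3, and WT unstimulated libraries 3.30, 16.1 and 1.43. Within each run the LPS response in WT was still positive, with differences of 2.75, 2.36 and 2.25 on the log2(CPM + 0.5) scale. With runs as a factor in the fit, the Gbp7 response in WT was 2.60 (adjusted p 0.000526).

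The regulatory IRGs responded within a narrow range, by log2 fold changes of 2.08 to 2.70 in WT. Irgm1, which protects the cell's own membranes and whose loss leaves mice open to intracellular infection, was at 36.3, 44.1 and 51.0 CPM in WT unstimulated and 240.4, 289 and 314 in WT LPS. AhR-KO libraries held 18.8, 26.9 and 58.2 unstimulated and 344, 447 and 495 after LPS. The log2 fold change was 2.70 ± 0.21 (SE, adjusted p = 3.37e-10) in WT and 3.80 ± 0.22 (SE, adjusted p = 1.23e-12) in AhR-KO. Irgm2, a Golgi-associated regulator, had 21.2, 26.8 and 30.6 CPM in WT unstimulated and 100.1, 109.9 and 124 in WT LPS. Its values in AhR-KO were 12.2, 14.98 and 29.04 and 90.2, 109 and 152, and its response was the lowest of the 10 in both genotypes, 2.08 ± 0.18 (SE, adjusted p = 2.08e-09) in WT and 2.76 ± 0.18 (SE, adjusted p = 1.42e-11) in AhR-KO. Igtp, also known as Irgm3, which sits on the endoplasmic reticulum and lipid droplets, was at 14.1, 15.2 and 20.2 CPM in WT unstimulated and 86.5, 99.99 and 118 in WT LPS. In AhR-KO the values were 7.61, 9.78 and 14.9 and 103, 142 and 157. Its log2 fold change was 2.68 ± 0.15 (SE, adjusted p = 3.53e-12) in WT and 3.75 ± 0.16 (SE, adjusted p = 1.44e-14) in AhR-KO. States did not overlap for any of the 3 regulators.

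The effector IRGs were almost absent at rest. Iigp1, also known as Irga6 (ENSMUSG00000054072, chr18:60376027-60392634), was at 0.113, 0.599 and 0.758 CPM in WT unstimulated and 2.02, 14.97 and 37.5 in WT LPS. In AhR-KO unstimulated it was at 0, 0.262 and 0.842 CPM, with no fragment in 2 of the 6 libraries, and in AhR-KO LPS at 49.7, 111 and 134. The log2 fold change was 5.00 ± 0.76 (SE, adjusted p = 1.21e-05) in WT and 8.42 ± 0.89 (SE, adjusted p = 3.82e-08) in AhR-KO, the latter the highest of the 10. Tgtp1 and Tgtp2, the near-identical pair also known as Irgb6, behaved alike. Tgtp1 was at 0.0227, 0.378 and 0.723 CPM in WT unstimulated and 2.24, 11.5 and 18.7 in WT LPS, and at 0, 0.0776 and 0.159 and 11.7, 26.2 and 32.7 in AhR-KO. Tgtp2 was at 0.931, 1.37 and 1.96 CPM in WT unstimulated and 16.8, 45.3 and 59.97 in WT LPS, and at 0.141, 0.237 and 1.05 and 55.2, 104 and 119 in AhR-KO. Log2 fold changes for LPS were 4.85 ± 0.66 (SE, adjusted p = 2.83e-06) in WT and 8.29 ± 0.79 (SE, adjusted p = 7.9e-09) in AhR-KO for Tgtp1, and 4.93 ± 0.47 (SE, adjusted p = 1.09e-08) in WT and 7.74 ± 0.53 (SE, adjusted p = 3e-11) in AhR-KO for Tgtp2. No library of one state reached the other for these 3 genes. With the counts of the pair summed as 1 gene, a check added after the data were seen, the response was 4.92 in WT and 7.84 in AhR-KO.

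**Figure D2:**
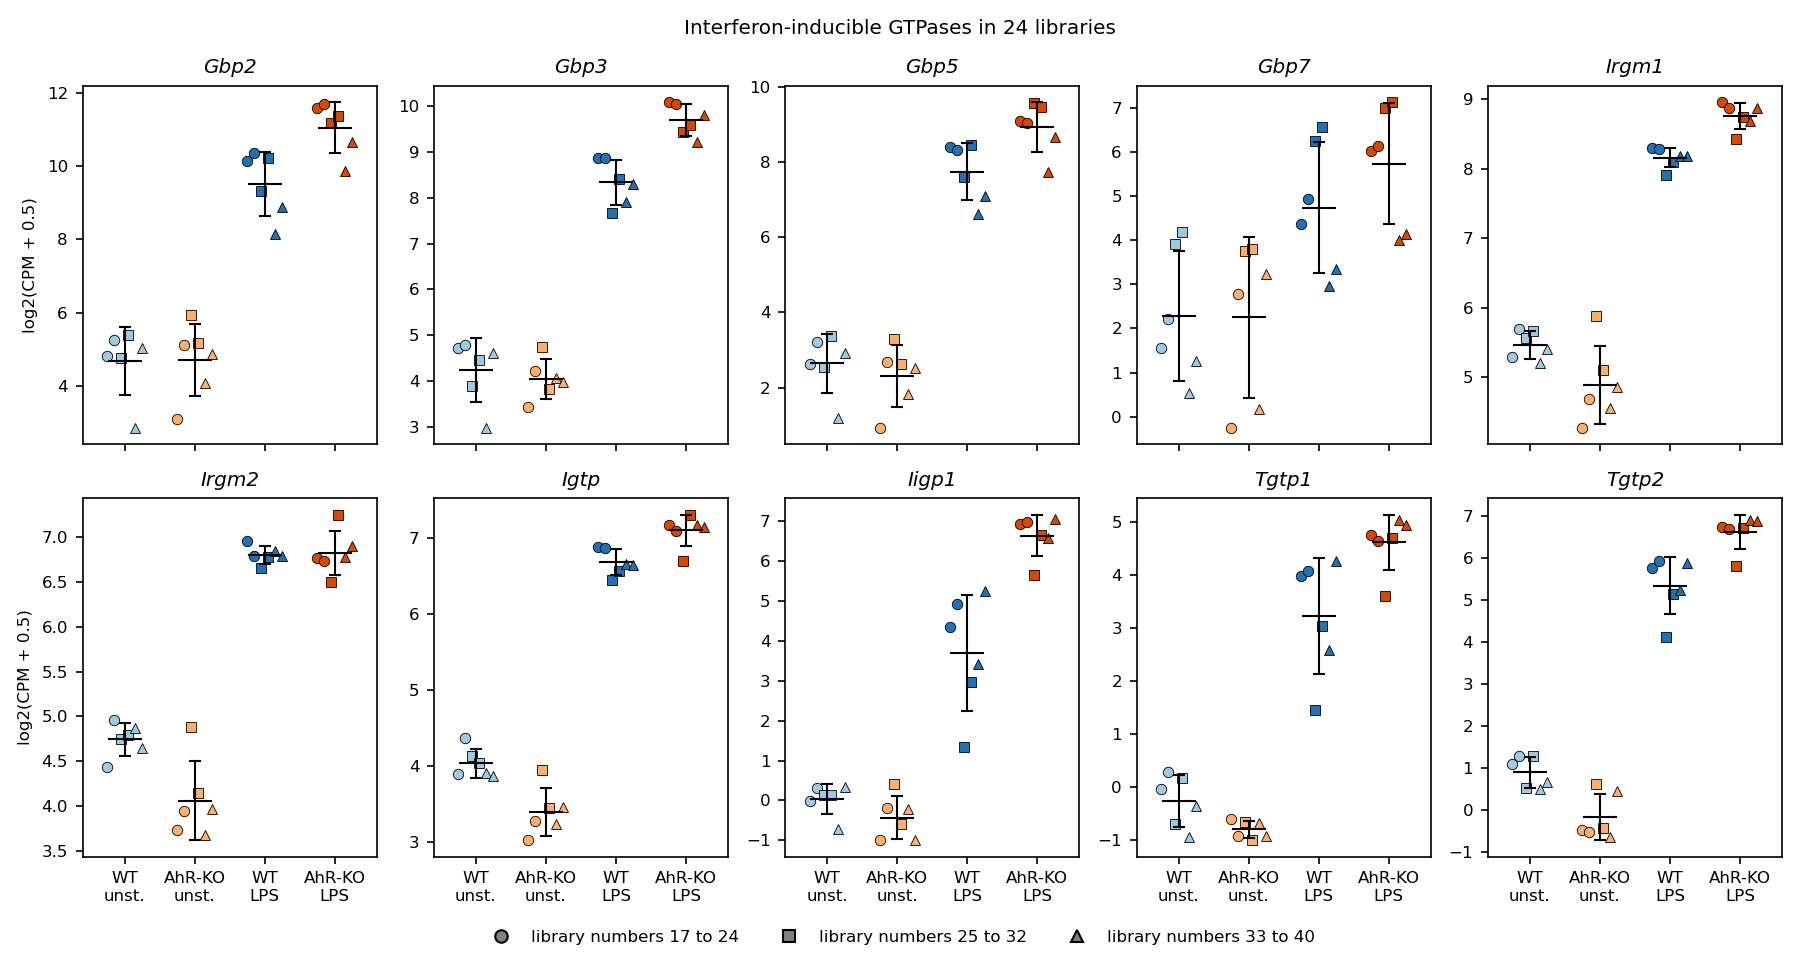
Level of each GTPase in the 24 libraries (y axis: log2(CPM + 0.5), own scale per gene; x axis: the 4 groups of 6 libraries; markers: the 3 runs of library numbers; lines: group mean, error bars: SD). All LPS libraries lie above all unstimulated libraries of the same genotype except for Gbp7 in WT, where the square markers of the second run lie highest in both states.

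**Figure D3:**
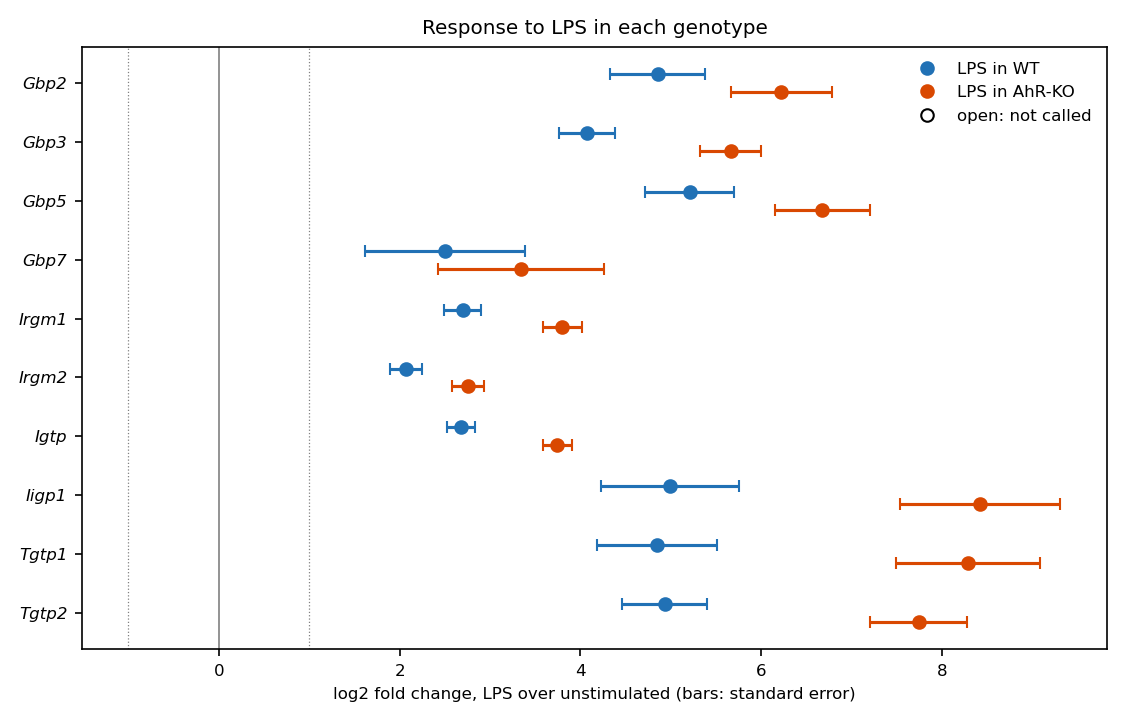
Log2 fold change of LPS over unstimulated for each GTPase (x axis: log2 fold change from edgeR, bars: standard error; blue: WT, orange: AhR-KO; dotted lines: the 2-fold limit). Each orange point lies to the right of its blue point, from Irgm2 (2.08 and 2.76) to Iigp1 (5.00 and 8.42).

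Among unstimulated cultures the knockout had less of the effector pair Tgtp1 and Tgtp2 and, by smaller steps, of the regulators Irgm2 and Igtp. Of the 10 GTPases, 2 were called lower in AhR-KO unstimulated than in WT unstimulated, with 3.57% of all genes called lower, and 4 passed the adjusted p alone, with 4.29% of all genes lower by that rule. Fitted log2 differences were negative for 8 of 10, with Gbp2 and Gbp7 slightly above 0 and turning below it under other settings (Gbp2 to -0.048 with each library's dependence of counts on gene length as a covariate, Gbp7 to -0.073 with scaling by total library size). Their median was -0.57, beside -0.01 over all genes. For none of the 10 did the 2 genotypes' libraries separate completely. Tgtp1 had 35, 51, 10, 47, 1 and 18 fragments in the 6 WT libraries and 7, 2, 12, 0, 8 and 2 in the 6 AhR-KO libraries, and a log2 difference of -2.24 ± 0.67 (SE, adjusted p = 0.048). This rests on few fragments, and Tgtp1 did not pass the filter on low counts when only the 12 unstimulated libraries were fitted. The call was lost without any 1 of 17 libraries (adjusted p 0.0506 to 0.128). They were libraries 17, 18, 20 to 24, 26 to 28, 30, 32, 34 to 36, 39 and 40. Tgtp2 had 123, 138, 77, 145, 41 and 69 fragments in WT and 10, 13, 95, 15, 9 and 58 in AhR-KO. By CPM, AhR-KO library 27 (1.05) reached into the WT range of 0.931 to 1.96, library 36 (0.879) came close to it, and the other 4 lay at 0.248 or less. The log2 difference was -1.60 ± 0.42 (SE, adjusted p = 0.0201), and the call was lost without library 18, 20 or 28 (adjusted p 0.0513 to 0.0563). Neither call held with limma-voom, and that of Tgtp1 was also lost with the size factors of DESeq2 in place of TMM, with no filter on low counts and without the libraries that have almost no Y-linked counts. The call of Tgtp2 was also lost with only the 12 unstimulated libraries fitted (adjusted p 0.122). Summed as 1 gene, the pair was lower by a log2 difference of -1.72 (adjusted p 0.0109).

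Irgm2 differed by -0.65 ± 0.17 (SE, adjusted p = 0.0201) between the unstimulated genotypes, and Igtp by -0.65 ± 0.14 (SE, adjusted p = 0.00543), both under the 2-fold limit. Neither passed with only the 12 unstimulated libraries fitted (adjusted p 0.142 and 0.0722), and Irgm2 did not with no filter on low counts (0.0551) or without any 1 of libraries 18, 19, 20, 35 and 36 (0.0521 to 0.0587). For Irgm2 the 6 AhR-KO libraries lay under every WT library except library 27 at 29.04 CPM, and for Igtp only AhR-KO library 27 at 14.9 CPM reached the WT range. Irgm1 had the same pattern, with library 27 at 58.2 CPM above all WT libraries, and a log2 difference of -0.49 ± 0.19 (SE, adjusted p = 0.18). Library 27 also held the highest Gbp2, Gbp3, Gbp5, Iigp1 and Tgtp2 of the AhR-KO unstimulated group. Iigp1 differed by -0.87 ± 0.70 (SE, adjusted p = 0.807). The guanylate-binding proteins gave 0.09 ± 0.45 (SE, adjusted p = 1) for Gbp2, -0.26 ± 0.28 (SE, adjusted p = 0.939) for Gbp3, -0.33 ± 0.42 (SE, adjusted p = 0.998) for Gbp5 and 0.03 ± 0.84 (SE, adjusted p = 1) for Gbp7, none of which passed the test. Within the 3 runs of library numbers, Irgm2 differed by -0.86, -0.26 and -0.94, Igtp by -0.98, -0.39 and -0.55 and Tgtp2 by -1.69, -0.80 and -0.68 on the log2(CPM + 0.5) scale, lower in AhR-KO in every run. The summed neutrophil and dendritic cell markers, the latter through Ccr7 and Cd207, were lower in AhR-KO unstimulated as well, and their part in these differences was not tested.

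After LPS every called difference lay in the other direction, with more in AhR-KO. Of the 10 GTPases, 4 were called higher in AhR-KO LPS than in WT LPS (Gbp2, Gbp3, Iigp1 and Tgtp2), with 2.17% of all genes called higher, and 5 passed the adjusted p alone, with 4.33% of all genes higher by that rule. Fitted log2 differences were positive for all 10 in the fit of all 24 libraries with TMM scaling, with a median of 1.17 beside -0.05 over all genes. Irgm2 fell to -0.19 with total library size and to -0.069 without library 32. The libraries of the 2 genotypes did not overlap for 3 of 10, Gbp3, Irgm1 and Iigp1, where 2.59% of all genes were higher without overlap.

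Iigp1 had the widest gap. Its 6 WT LPS libraries, in the order 21, 22, 29, 30, 37 and 38, held 19.8, 30.1, 2.02, 7.32, 10.2 and 37.5 CPM, and its AhR-KO LPS libraries, in the order 23, 24, 31, 32, 39 and 40, held 122, 125, 49.7, 100.03, 96.2 and 134 CPM. Every AhR-KO library exceeded every WT library, the mean was 5.87 times that of WT, and the fitted log2 difference was 2.55 ± 0.67 (SE, adjusted p = 0.012). Within runs it was 2.31, 4.0 and 2.50 on the log2(CPM + 0.5) scale. Tgtp2 held 53.3, 59.97, 16.8, 34.8, 37.4 and 58.4 CPM in WT LPS and 105, 102, 55.2, 103, 119 and 117 CPM in AhR-KO LPS, in the same order of libraries. Only AhR-KO library 31 came into the WT range. The log2 difference was 1.21 ± 0.40 (SE, adjusted p = 0.0479) and close to the threshold, since leaving out any 1 of 15 libraries (17, 18, 21 to 26, 29, 30, 32, 34, 37, 39 and 40) ended the call (adjusted p 0.0509 to 0.102). Tgtp1 gave 1.20 ± 0.57 (SE, adjusted p = 0.201) and was called with limma-voom at 1.48 (adjusted p 0.0182). The pair summed as 1 gene gave 1.21 (adjusted p 0.0455).

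Gbp3 held 467, 468, 201, 338, 240.4 and 313 CPM in WT LPS and 1079, 1055, 689, 767, 593 and 892 CPM in AhR-KO LPS. All 6 AhR-KO libraries lay above all 6 WT libraries, and the log2 difference was 1.32 ± 0.28 (SE, adjusted p = 0.002). Gbp2, the most abundant of the 10, held 1118, 1303, 636, 1178, 283 and 468 CPM in WT LPS and 3042, 3272, 2316, 2607, 921 and 1606 CPM in AhR-KO LPS. Both genotypes were lowest in the third run (libraries 37, 38, 39 and 40), and within runs the difference was 1.39, 1.51 and 1.74 on the log2(CPM + 0.5) scale, against a fitted 1.47 ± 0.45 (SE, adjusted p = 0.0347). The length slope, each library's slope of log2 CPM on log2 gene length over all genes, was low where Gbp2 was lowest. It was 0.239 to 0.377 in the LPS libraries of run 3 and 0.482 to 0.741 in the other LPS libraries, and 0.136 and 0.168 in libraries 19 and 33, the lowest for Gbp2 of their unstimulated groups, against 0.363 to 0.671 in the other unstimulated libraries. Between runs 1 and 2 the slope did not follow Gbp2. LPS libraries of run 2 had the highest slopes (0.659 to 0.741) but less Gbp2 than run 1, with means of 907 and 1210 CPM in WT and 2461 and 3157 in AhR-KO. With that slope as a covariate the Gbp2 difference was 1.66 (adjusted p 0.000119). Leaving out any 1 of libraries 23, 24, 29, 31, 32, 37 and 38 ended the Gbp2 call (adjusted p 0.0508 to 0.0791). The calls of Gbp2 and Tgtp2 were also lost with scaling by total library size, with no filter on low counts and without the libraries that have almost no Y-linked counts, and those of Gbp3 and Iigp1 were kept in all 3 settings. Gbp5 missed the threshold at 1.14 ± 0.42 (SE, adjusted p = 0.0811). It passed without library 39 (adjusted p 0.0469), with runs as a factor (adjusted p 0.0206), with DESeq2 (adjusted p 0.0349) and with limma-voom (adjusted p 0.0302). Gbp7 gave 0.87 ± 0.84 (SE, adjusted p = 0.673). With the length slope as a covariate Gbp7 was called at 1.38 (adjusted p 0.000404), Gbp5 at 1.26 (adjusted p 0.000108) and Tgtp1 at 1.16 (adjusted p 0.0432).

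The regulators differed little after LPS. Irgm1 held 314, 311, 240.4, 273, 289 and 289 CPM in WT LPS and 495, 466, 344, 429, 412 and 467 CPM in AhR-KO LPS. Its libraries separated completely at a log2 difference of 0.61 ± 0.19 (SE, adjusted p = 0.0403), under the 2-fold limit. It did not pass with scaling by total library size (0.39, adjusted p 0.283), with no filter (adjusted p 0.0843), without the libraries that have almost no Y-linked counts (adjusted p 0.0721) or without any 1 of libraries 21 to 24, 29, 30, 32 and 37 to 40 (adjusted p 0.0551 to 0.0897). Igtp gave 0.42 ± 0.14 (SE, adjusted p = 0.0552), with AhR-KO library 31 (103 CPM) as the one in the WT range. Irgm2 was at nearly the same level in both genotypes, 100.1, 109.9 and 124 CPM in WT LPS and 90.2, 109 and 152 in AhR-KO LPS, with a log2 difference of 0.03 ± 0.17 (SE, adjusted p = 0.971). Without libraries 31, 33 and 37, left out after the data were seen, the same 4 genes were called, Igtp passed the adjusted p (0.55, adjusted p 0.0216) and Iigp1 stood at 2.65. The summed neutrophil and dendritic cell markers, the latter mostly Ccr7, were lower in AhR-KO LPS than in WT LPS, opposite to the GTPases. The summed alveolar macrophage markers were higher, and each of these sums overlapped between the genotypes. Of the 8 alveolar macrophage markers 2 were called higher (2.17% of all genes). Car4 had means of 1832 CPM in WT LPS and 3674 in AhR-KO LPS, while Pparg (27.1 and 19.1) and Fabp4 (2.77 and 2.21) were lower in AhR-KO LPS. Library 31, with the most Ccr7 of its group, had the lowest Irgm1, Irgm2, Igtp, Iigp1, Tgtp1 and Tgtp2 in it. The part of these markers in the differences was not tested.

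**Figure D4:**
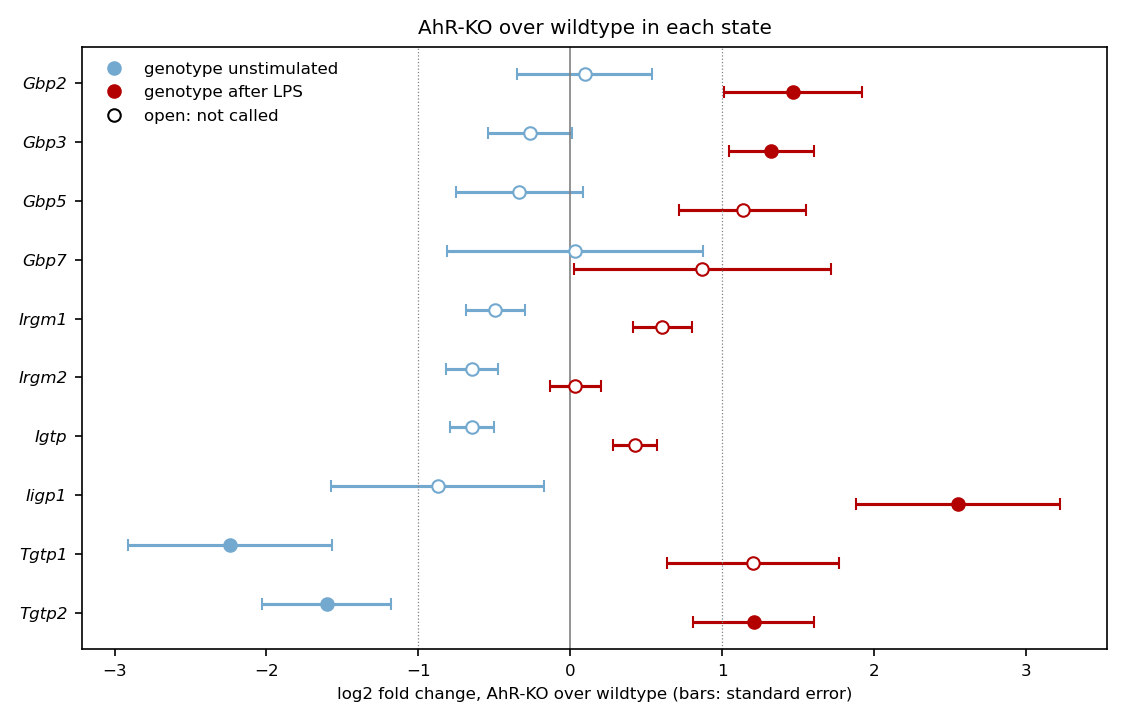
Log2 difference of AhR-KO over WT for each GTPase in each state (x axis: log2 fold change from edgeR, bars: standard error; blue: unstimulated, red: after LPS; filled points passed the test and the 2-fold limit). Blue points lie left of 0 except those of Gbp2 (0.09) and Gbp7 (0.03), all red points lie right of it (Irgm2, at 0.03, moved to -0.19 with scaling by total library size), and Tgtp1 (-2.24) and Iigp1 (2.55) are farthest out.

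The difference between the LPS responses of the genotypes was tested as an interaction, with the same 24 libraries that the comparisons above share. It was positive for all 10 GTPases, meaning a larger response in AhR-KO, and 6 of 10 passed an adjusted p of 0.05, where 1.95% of all genes passed in that direction. The median was 1.42 beside -0.05 over all genes. All 3 effectors passed, with 3.43 ± 0.97 (SE, adjusted p = 0.0431) for Iigp1, 3.44 ± 0.88 (SE, adjusted p = 0.0235) for Tgtp1 and 2.81 ± 0.58 (SE, adjusted p = 0.00497) for Tgtp2. Of the regulators, Igtp passed at 1.07 ± 0.20 (SE, adjusted p = 0.00255) and Irgm1 at 1.10 ± 0.27 (SE, adjusted p = 0.0201), and Irgm2 stood at 0.68 ± 0.24 (SE, adjusted p = 0.135). Of the guanylate-binding proteins only Gbp3 passed, at 1.59 ± 0.39 (SE, adjusted p = 0.02). Gbp2 stood at 1.37 ± 0.63 (SE, adjusted p = 0.336), Gbp5 at 1.47 ± 0.59 (SE, adjusted p = 0.22) and Gbp7 at 0.84 ± 1.19 (SE, adjusted p = 0.971). With the length slope as a covariate all 10 passed, Gbp2 at 1.71 (adjusted p 0.00542), Gbp5 at 1.72 (adjusted p 0.0007), Gbp7 at 1.49 (adjusted p 0.0109) and Irgm2 at 0.71 (adjusted p 0.0256) among them. With that covariate 1408 of all genes passed in the positive direction, against 324 without it. The Iigp1 call was lost without any 1 of 17 libraries (17, 18, 20, 21, 23 to 26, 28, 30, 32, 34 to 37, 39 and 40, adjusted p 0.0509 to 0.0756), the Tgtp1 call without library 18 (0.0524), and Irgm2 passed without library 27 (0.00391). Taken run by run, the difference between responses was positive in all 3 runs for each of the 10 genes on the log2(CPM + 0.5) scale. It ran from 2.93 to 4.22 for Iigp1 and from 0.42 to 0.96 for Irgm2, and was lowest for Gbp7 in run 3, at 0.12. Scaling by total library size ended the calls of Gbp3, Irgm1 and Iigp1, limma-voom that of Tgtp1, fitting with no filter on low counts that of Iigp1, and leaving out the libraries with almost no Y-linked counts that of Gbp3. Of the 3 effectors, Tgtp2 alone was called between genotypes in both states, lower unstimulated and higher after LPS. The AhR-KO group of 6 unstimulated libraries held 134 fragments of Iigp1, 31 of Tgtp1 and 200 of Tgtp2, and such low counts widen the error of the fold change.

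Per kilobase of exon, which allows levels to be compared between genes, Gbp2 led in every group. In WT unstimulated it stood at 11.4 ± 4.83 CPM per kb (mean ± SD, n = 6), ahead of Igtp at 7.92 ± 1.15, Irgm1 at 7.58 ± 1.06, Irgm2 at 7.16 ± 0.895 and Gbp3 at 6.14 ± 2.36. These 5 overlapped with their neighbours in the order. Gbp7 at 1.24 ± 1.29, Gbp5 at 0.972 ± 0.435, Tgtp2 at 0.483 ± 0.166, Tgtp1 at 0.117 ± 0.0871 and Iigp1 at 0.0946 ± 0.0403 followed. Only Tgtp2 stood clear of the next, which is its near copy Tgtp1, and the ratio of that pair is uncertain. In AhR-KO unstimulated the top was Gbp2 at 12.2 ± 7.17, then Irgm1 at 5.38 ± 2.44, Gbp3, Igtp and Irgm2, and the last of these was clear of Gbp7 at 1.27 ± 1.03.

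After LPS the order changed, with Gbp3 now above the regulators. In WT LPS the means were 330.2 ± 168 CPM per kb for Gbp2 and 104 ± 34.2 for Gbp3, which stood clear of Igtp at 50.6 ± 6.01. Irgm1, Gbp5 and Irgm2 overlapped with their neighbours, and Irgm2 at 30.2 ± 2.14 stood clear of Tgtp2 at 14.8 ± 5.73. Gbp7, Tgtp1 and Iigp1 were lowest, with Iigp1 at 3.06 ± 2.38. In AhR-KO LPS, Gbp2 at 912 ± 354 and Gbp3 at 259 ± 60.5 each stood clear of the next gene. Gbp5, Irgm1 and Igtp overlapped at 79.1 ± 29.7, 75.0 ± 9.24 and 68.0 ± 8.95. Tgtp2 at 34.1 ± 7.91 stood beside Irgm2 at 30.9 ± 5.61. Iigp1 at 17.9 ± 5.27 ranked by its mean above Gbp7 and Tgtp1, which it did not in WT LPS. Its libraries overlapped with those of Gbp7 in AhR-KO LPS and of Tgtp1 in WT LPS. The values of Tgtp1 and Tgtp2 are low estimates, since most of their length is shared.

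Within a group most GTPases varied together, and more within the families than across them by the median. Over the residuals of 24 libraries from their group means, on the log2(CPM + 0.5) scale, the 6 pairs of guanylate-binding proteins had Pearson correlations of 0.24 to 0.97 with a median of 0.76, and the highest was Gbp2 with Gbp5. The 15 IRG pairs ran from 0.19 to 0.88 with a median of 0.63. The regulators Irgm1, Irgm2 and Igtp formed one tight set (0.82 to 0.88) and the effectors Iigp1, Tgtp1 and Tgtp2 another (0.74 to 0.86). The 24 pairs across the families ran from -0.28 to 0.63 with a median of 0.34. Single pairs departed from this: Gbp3 with Gbp7 stood at 0.24, and Irgm1 at 0.61 with Gbp2 and 0.31 with Tgtp1. Igtp with Tgtp2, a regulator with an effector, stood at 0.73, close to the lowest pair of effectors. These values describe the libraries, which share depth, culture and run, and Igtp with Irgm2 and Tgtp1 with Tgtp2 share sequence. In WT LPS, library 29 was low for Iigp1 (2.02 CPM) and Tgtp1 (2.24 CPM) but not for Gbp2 (636 CPM), whereas library 37 was the lowest for Gbp2 (283 CPM) but not for Iigp1 (10.2 CPM).

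**Figure D5:**
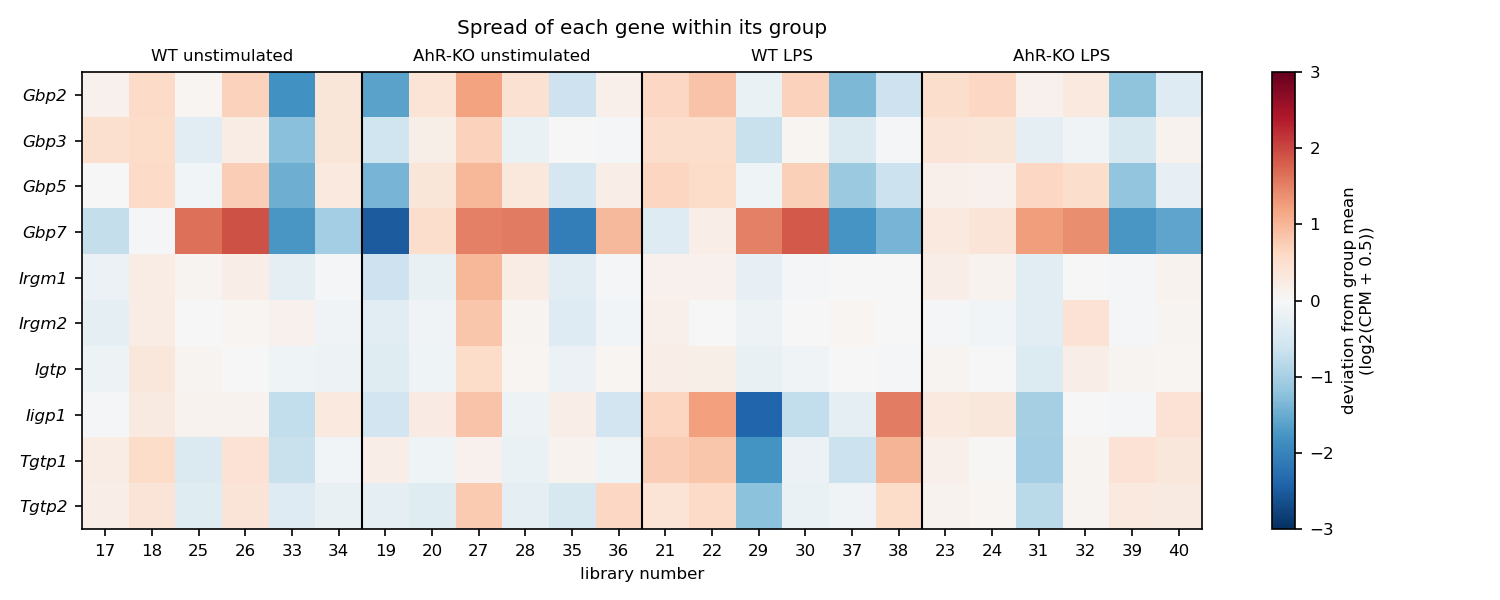
Deviation of each library from its group mean (colour: difference in log2(CPM + 0.5), red higher, blue lower; columns: library numbers sorted by group; rows: the 10 GTPases). Gbp7 is higher in the middle run (libraries 25 to 32) in all 4 groups, and libraries 29 and 31 are low in the 3 effector rows.

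The 24 libraries' nearest other genes were interferon-stimulated genes as well. Ranked by Pearson correlation with the mean of the z-scored GTPases, the 10 most alike among genes with a mean of at least 1 CPM were Ifi205, Ifit3b, Trim30c, Dhx58, Ifit2, Isg20, Oasl1, Ddx60, Ifit3 and Gbp4, with correlations of 0.993 to 0.996. Much of that is the shift between unstimulated and LPS libraries that all of them share. Over residuals from group means the same genes correlated at 0.82 to 0.96, with Ifit2 at 0.96 and Gbp4 at 0.93.

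Most other interferon-inducible GTPases rose with LPS, and fewer were called between genotypes. Of 20 further genes of these families, all tested, 15 were called higher with LPS in WT (13.2% of all genes) and 19 in AhR-KO (15.1%). In AhR-KO LPS 7 were called higher than in WT LPS (2.17% of all genes), 3 had a positive interaction (1.95%) and 1 was called higher in AhR-KO unstimulated (0.916%), while none was called lower in any of these comparisons. Gbp4 was at 43.7 ± 24.2 CPM (mean ± SD, n = 6) in WT LPS and 161 ± 52.6 in AhR-KO LPS, a log2 difference of 1.88 ± 0.63 (SE, adjusted p = 0.051). Gbp6 gave 0.88 ± 0.41 (SE, adjusted p = 0.192) and Gbp9 0.78 ± 0.46 (SE, adjusted p = 0.355). The IRG effector Ifi47 was at 310.4 ± 138 CPM in WT LPS and 467 ± 144 in AhR-KO LPS, with 0.59 ± 0.28 (SE, adjusted p = 0.216), and the IRG gene Gm12250 gave 0.55 ± 0.29 (SE, adjusted p = 0.276). Irgc1, an IRG relative known from testis, was the 1 gene of the list called higher in unstimulated AhR-KO cells, by 1.74 ± 0.23 (SE, adjusted p = 1.38e-05), a direction opposite to that of Tgtp1 and Tgtp2, and also the lowest p after LPS. The lowest p of the interaction was that of 9930111J21Rik2, at 1.17 ± 0.26 (SE, adjusted p = 0.00945), and Gbp2b led both LPS comparisons.

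Upstream, 1 of 16 interferon ligand genes had enough counts to be tested. Ifnb1, interferon-β, was at 0 to 0.158 CPM in WT unstimulated and 0 to 0.0662 in AhR-KO unstimulated, and at 0.098 to 2.50 in WT LPS and 0.728 to 6.97 in AhR-KO LPS, so the genotypes overlapped. It rose with LPS by 4.37 ± 0.95 (SE, adjusted p = 0.000691) in WT and 7.26 ± 1.08 (SE, adjusted p = 6.41e-06) in AhR-KO, and the difference between genotypes after LPS, 1.80 ± 0.79 (SE, adjusted p = 0.164), did not pass. Ifng, interferon-γ, had 0 fragments in both unstimulated groups, 9 in WT LPS and 4 in AhR-KO LPS. Among 7 receptor and kinase genes, 4 were called higher with LPS in each genotype (13.2% of all genes in WT and 15.1% in AhR-KO), led by Ifngr2. Ifngr1, the ligand-binding chain of the interferon-γ receptor, fell by 1.11 ± 0.13 (SE, adjusted p = 2.45e-07) on the log2 scale in AhR-KO and stood at -0.66 ± 0.13 (SE, adjusted p = 0.00028) in WT. No gene of this list was called between genotypes at the 2-fold limit. After LPS Ifngr1 was nonetheless lower in AhR-KO without overlap, at 50.9 to 68.2 CPM in WT and 28.5 to 47.4 in AhR-KO. Ifngr2 was higher without overlap, at 234 to 270 and 331 to 387 CPM (2.59% of all genes were higher without overlap).

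Of 10 interferon transcription factors, 9 were called higher with LPS in WT and 8 in AhR-KO (13.2% and 15.1% of all genes). Irf1, an early interferon-γ-induced factor, was at 83.9 ± 23.5 CPM in WT LPS and 76.7 ± 16.1 in AhR-KO LPS, a log2 difference of -0.13 ± 0.20 (SE, adjusted p = 0.847). Irf9, a DNA-binding factor of the type I interferon response, was lower in unstimulated AhR-KO cells by -0.53 ± 0.14 (SE, adjusted p = 0.0181), under the 2-fold limit, and had a positive interaction of 0.78 ± 0.20 (SE, adjusted p = 0.0215). Irf7, which amplifies type I interferon and had the lowest p of the list with LPS, was lower in AhR-KO unstimulated by a log2 difference of -1.46 ± 0.35 (SE, adjusted p = 0.0104). It was higher in AhR-KO LPS by 1.18 ± 0.35 (SE, adjusted p = 0.0256), with a positive interaction of 2.64 ± 0.50 (SE, adjusted p = 0.00221). Irf8, a factor of dendritic cells and macrophages that also binds ISREs, went the other way. It was at 474 to 1303 CPM in WT LPS and 32.5 to 183 in AhR-KO LPS, a log2 difference of -3.79 ± 0.38 (SE, adjusted p = 3.06e-07).

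Among the inhibitors of the pathway, Socs1 and Usp18 were lower at rest in the knockout. Of 6 tested, 3 were called higher with LPS in each genotype (13.2% of all genes in WT and 15.1% in AhR-KO), 2 were called lower in AhR-KO unstimulated (3.57% of all genes), and the same 2 had a positive interaction (1.95% of all genes). Socs3, which restrains cytokine receptors, had the lowest p with LPS, at 3.82 ± 0.19 (SE, adjusted p = 3.25e-13) in WT and 4.41 ± 0.20 (SE, adjusted p = 2.07e-14) in AhR-KO. Socs1, which blocks Janus kinases, was at 26.1 ± 4.24 CPM in WT unstimulated and 8.40 ± 2.73 in AhR-KO unstimulated, with -1.63 ± 0.19 (SE, adjusted p = 3.19e-06), and at 119.8 ± 16.4 and 119 ± 24.7 after LPS, with -0.01 ± 0.18 (SE, adjusted p = 0.997). Usp18, which blocks signalling at the type I receptor, gave -2.17 ± 0.38 (SE, adjusted p = 0.000486) unstimulated and 0.78 ± 0.36 (SE, adjusted p = 0.195) after LPS. Of 9 genes on the route from Toll-like receptor 4 to interferon, 4 were called higher with LPS in each genotype, beside those shares of all genes, led by the co-receptor Cd14, and between genotypes only the adaptor Ticam2 after LPS (2.17% of all genes were called higher there), by 1.10 ± 0.17 (SE, adjusted p = 8.8e-05).

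Among the partners of the GTPases, the autophagy conjugation genes help to place them at the vacuole. Of 12 tested, 3 were called higher with LPS in WT and 2 in AhR-KO, near the 13.2% and 15.1% of all genes, led by Sqstm1, and none was called between genotypes or in the interaction. Of 7 cytosolic sensing genes that act after the GTPases, 5 were called higher with LPS in each genotype, beside the same shares of all genes, and none between genotypes at the 2-fold limit. Casp4, which encodes the LPS receptor caspase-11, was at 98.3 ± 27.6 CPM in WT LPS and 185 ± 43.1 in AhR-KO LPS, a log2 difference of 0.91 ± 0.18 (SE, adjusted p = 0.00113), and Casp1 gave 0.97 ± 0.18 (SE, adjusted p = 0.000387) with an interaction of 0.92 ± 0.25 (SE, adjusted p = 0.0309). Zbp1, a nucleic acid sensor, led the list for LPS. Of 12 type I interferon-stimulated genes outside the GTPase families, 12 were called higher with LPS in each genotype, 3 lower in AhR-KO unstimulated (3.57% of all genes), 2 higher in AhR-KO LPS (2.17%), and 7 had a positive interaction (1.95%). Isg15, a ubiquitin-like protein, had the lowest p with LPS in WT, and Rsad2, an antiviral enzyme, had it in AhR-KO. Rsad2 also led both genotype comparisons and the interaction, with -1.58 ± 0.35 (SE, adjusted p = 0.00521) unstimulated, 1.27 ± 0.35 (SE, adjusted p = 0.0152) after LPS and 2.85 ± 0.50 (SE, adjusted p = 0.00117) for the interaction.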

How the data were processed

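RNA of 24 cultures was made into directional, mRNA-enriched libraries. Per the file headers and the study's methods, the authors aligned the reads to mm10 with GSNAP and deposited whole fragment counts per gene from featureCounts 2.0.1, reverse-stranded, on Ensembl release 98, with fragments of several genes or places left out. The deposited gene lengths are merged exon lengths, another unit that served for CPM per kb. In all 92 spike-in rows, which held 1 count, were left out. Symbols came from a GENCODE table and named 55154 of 55421 genes.

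Counts were tested with edgeR 4.0.16 (R 4.3.3): filterByExpr, TMM, quasi-likelihood F-test, all 24 libraries in 1 fit with a coefficient per group, Benjamini-Hochberg adjustment over 16593 genes. The biological coefficient of variation was 49.1% and TMM factors ran from 0.704 to 1.30. Standard errors are the log2 fold change divided by the root of F and so approximate. The interaction had no fold limit. Tests were checked on simulated counts, where 68.5% (interaction) to 83.5% (LPS in AhR-KO) of 200 genes changed by 2 on the log2 scale were recovered. Alternatives were DESeq2 1.42.0, limma-voom 3.58.1, other scalings, filters, covariates and each library left out. Motifs were searched in RefSeq promoters.

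The GTPases and the other gene lists were chosen with earlier results of these data known. All 10 GTPases were named everywhere. From each pathway list, the called gene with the lowest p in each direction was named, with Irf1, Irf9, Ifnb1, Ifng, Ifngr1, Ifi47, Gm12250, Gbp4, Gbp6, Gbp9, Casp4 and Ahr whatever their values, as were the 10 genes whose pattern was most like theirs. Usp18, Siglech, Ccr7, Cd207, Clec9a, Zbtb46, Flt3, Cd209a and Gm12185 were named after their values were seen. The result of 1 further gene of that rule is not reported here.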

Additional observations from a re-analysis of the deposited data

Results flagged for a closer look

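In 40 groups of 6 libraries (10 GTPases in 4 groups), the lowest or highest library was set against the others by Dixon's ratio at its critical value for 6 libraries. Chance marks about 1 group in 20, and 6 were marked. In AhR-KO LPS, library 31 lay apart at the low end for 4 IRGs, with Igtp at 103 CPM, Iigp1 at 49.7 CPM, Tgtp1 at 11.7 CPM and Tgtp2 at 55.2 CPM. In WT unstimulated, library 33 lay apart at the low end for Gbp2 at 6.76 CPM and Iigp1 at 0.113 CPM. Library 31 held the highest dendritic cell marker sum of its group (893 CPM, of which Ccr7 was 884) and library 33 the most neutrophil marker signal of all libraries (12640 CPM), and the part of these in the low values was not tested.

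The LPS response differed between the genotypes, by the test of the difference itself, for 6 GTPases (1.95% of all genes passed in that direction), each larger in AhR-KO: by 1.59 on the log2 scale for Gbp3, 1.10 for Irgm1, 1.07 for Igtp, 3.43 for Iigp1, 3.44 for Tgtp1 and 2.81 for Tgtp2. Their adjusted p-values from edgeR ran from 0.00255 (Igtp) to 0.0431 (Iigp1). The Iigp1 call was lost without any 1 of 17 libraries, and 3 of the 6 calls were kept with scaling by total library size.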

How the results depend on the processing

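The counts of 10 for LPS in AhR-KO held in every setting, and for LPS in WT 9 or 10 were called. Over 50 fold changes (10 GTPases in 5 comparisons), settings other than leaving out a library gave 510 values on the same side of the test and in the same direction, 19 that lost it, 12 that gained it and 8 that changed sign. Of the GTPases lower in AhR-KO unstimulated, 4 were called with no minimum fold change, 1 with DESeq2 size factors, 0 with limma-voom, 1 with no filter, 0 with only the 12 libraries compared (Tgtp1 did not pass the filter there) and 1 without the libraries that have almost no Y-linked counts, and with 1 library left out the count ran from 0 to 2. In AhR-KO LPS against WT LPS, 2 were called with total library size, 2 with no filter, 2 without the libraries that have almost no Y-linked counts and 2 to 4 with 1 library left out. Calls rose to 5 with DESeq2, with runs as a factor and with no minimum fold change, and to 6 with limma-voom. With a covariate for each library's dependence of counts on gene length 7 were called, where 733 of all genes were called higher (against 360). The interaction count was 3 with total library size and 4 to 7 with 1 library left out. With the length covariate it was 10, where 1408 of all genes passed in the positive direction (against 324). Over all genes, calls with no minimum fold change were 6305 for LPS in WT and 2096 for genotype after LPS (against 4137 and 1387 as reported), and for the interaction 1125 with DESeq2, 1201 with runs as a factor and 2877 with the length covariate (against 713).

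Signs changed only for genotype differences near 0. Unstimulated, Gbp7 was -0.073 with total library size, -0.16 with limma-voom, -0.12 with the length covariate, -0.16 without the libraries that have almost no Y-linked counts and -0.19 without libraries 31, 33 and 37, and from -0.25 to 0.56 with 1 library left out. Gbp2 was -0.048 with the length covariate, -0.10 without libraries 31, 33 and 37, and from -0.22 to 0.29 with 1 left out. After LPS, Irgm2 was -0.19 with total library size and from -0.069 to 0.089 with 1 left out. The cause was not tested. Total library size moved the median of all genes by -0.34 for LPS in WT, -0.48 for LPS in AhR-KO, -0.22 for genotype after LPS and -0.13 for the interaction, and the share of higher among all calls from 52.8% to 33.9%, 49.0% to 28.2%, 26% to 14.9% and 45.4% to 31.4%, so its values for the GTPases are to be read against those shifts. No paired analysis was run, because the labels tie no LPS culture to an unstimulated one. The main fit treated the libraries as independent. In WT, the libraries with almost no Y-linked counts were library 34 (unstimulated, 2 counts) and library 38 (LPS, 4 counts). Those with the most neutrophil marker signal of their groups were library 33 (unstimulated, 12640 CPM) and library 37 (LPS, 8398 CPM). Whether such libraries came from the same animal was not tested. Fragments of Iigp1, Tgtp1 and Tgtp2 were few in unstimulated libraries, which limits the precision of their fold changes.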
